A study of Rattus norvegicus and Mus musculus with 18 samples.

Results

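The comparison set the new epidermis over healed rat skin wounds against unwounded epidermis of adult rats. Its members were 9 of the 18 libraries of the study. They were 4 of wound epidermis taken 1 day after the scab came off and 5 of inter-follicular epidermis, the surface between hair follicles, lifted from normal skin by suction. A further 3 rat wound dermis libraries of the same wound stage are used below as levels and in 1 alternative fit, and the 6 mouse libraries are not used here. The sources used here do not give strain, sex, wound size or how wound epidermis was parted from dermis. Nor do they say that each library is a separate animal, so the p-values rest on a spread that may be technical. Genes were kept where at least 3 of the 9 libraries held 1 TPM or more, which left 13751 of 32457. TPM is a length-corrected abundance that states how much of all transcripts in a library each gene accounts for.

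Unwounded epidermis is renewed from a basal layer of dividing keratinocytes, whose daughters move outward, build a cornified barrier and are shed. After injury, keratinocytes at the wound edge and in nearby hair follicles change their keratins and adhesion proteins, crawl under the scab and divide until the surface is closed. In mice, but not usually in rats, large wounds can then form new hair follicles from this epidermis, and the time of scab loss is when that begins. Suction separates epidermis from dermis near their junction.

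The deposited table lists rat genes by Ensembl identifier, and the tables used here paired 0 of 32457 identifiers with a name. Both tissues are therefore described by counts of genes, by classes of abundance and size of change, and by 4 identifiers with their values in every library. Cell type markers and pathway genes could not be looked up, so the labelled tissues were not checked against their defining genes. Promoter sequences could not be matched to the identifiers either, and none are shown.

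Wound epidermis and inter-follicular epidermis differed in most of their expressed genes. All unwounded libraries were lifted by suction from between hair follicles, and how wound epidermis was parted is not given. Healing, the part of skin sampled and the way of collection therefore cannot be told apart in these counts. In limma, 9244 of 13751 genes were called at an adjusted p under 0.05, which is 67.2% of those tested. The genes higher in wound epidermis numbered 5583 (40.6%) and the lower ones 3661 (26.6%). A log2 change of at least 1, on the log2(TPM + 1) scale used throughout, was reached by 4963 of the called genes (36.1%), 3229 of them higher (23.5%) and 1734 lower (12.6%). In 7822 genes (56.9%) every library of one tissue lay above every library of the other. The called higher genes had a median log2 change of 1.13 and the lower ones of -0.96, with middle ranges from 0.73 to 1.74 and from -1.46 to -0.65.

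Libraries resembled others of their own tissue more than those of the other tissue. Across the tested genes, pairs of wound epidermis libraries correlated at 0.954 to 0.972 (6 pairs), pairs of inter-follicular libraries at 0.961 to 0.985 (10 pairs) and pairs from different tissues at 0.797 to 0.814 (20 pairs). The value of 0.985 was that of inter-follicular replicates 1 and 5, and the next highest inter-follicular pair was at 0.970. The sources do not say whether replicates 1 and 5 are separate animals. All these values are correlations across genes, which are not independent replicates. The median SD of a gene between libraries, in log2 units, was 0.27 in wound epidermis and 0.20 in inter-follicular epidermis, and the SD was larger in wound epidermis for 65.2% of the genes. With any 1 library left out the wound epidermis median SD was 0.24 to 0.28 and the inter-follicular one 0.17 to 0.21.

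**Figure D1:**
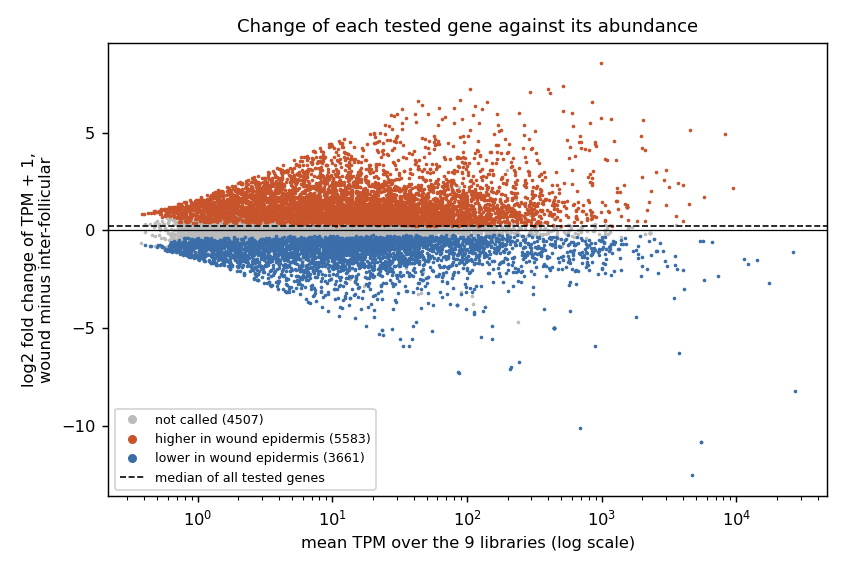
Log2 fold change of TPM + 1 (wound epidermis minus inter-follicular epidermis, vertical axis) against the mean TPM over the 9 libraries (horizontal log axis), 1 point per tested gene. The 5583 higher genes lie above 0 and the 3661 lower genes below it, the dashed line marks the median of all tested genes at 0.21, and the points farthest from 0 are lower genes.

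Larger changes leaned further towards genes higher in the wound. Of genes called with a log2 change of at least 2, 1073 were higher and 421 lower, and at 3 or more the counts were 382 and 126. Higher genes thus made up 60.4% of all calls, 71.8% at 2 or more and 75.2% at 3 or more. The excess at 3 or more was also present after median-of-ratios scaling (67.1%), after quantile normalization (63.9%) and without the 50 most abundant genes (65.0%), while at 1 or more quantile normalization gave 2382 higher and 2478 lower genes. On TPM as deposited the lean was smaller at the extreme end, where 18 genes were higher and 11 lower by 6 or more. Median-of-ratios scaling gave 16 higher and 14 lower there, and quantile normalization 14 of each. Without the 50 most abundant genes the lean was not smaller, with 21 higher and 11 lower (65.6%). The largest single change was a loss, with the lowest value at -12.54 against a highest of 8.55.

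The balance of directions differed with abundance. Among the 153 genes with a mean above 1000 TPM over the 9 libraries, 76 were lower in wound epidermis and 53 higher, and their median log2 change was -0.34. Lower genes outnumbered higher ones in this class under the other 3 scalings too (81 against 46, 71 against 53 and 52 against 32). In the classes of 10 to 100 and 100 to 1000 TPM the order was the other way. There 2507 genes were higher and 1519 lower of 5555, and 629 were higher and 438 lower of 1303, with medians of 0.25 and 0.29. That excess of higher genes was small after median-of-ratios scaling (2093 higher and 1982 lower, and 531 higher and 525 lower). It flipped after quantile normalization (1923 higher and 2133 lower, and 492 higher and 557 lower) and without the 50 most abundant genes (1960 and 1987, and 518 and 532). Median-of-ratios scaling and quantile normalization draw the balance over all genes towards even by construction. Calls were made in 84.3% of the genes above 1000 TPM and in 60.1% of the 6043 genes between 1 and 10 TPM.

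Unwounded epidermis put more of its transcripts into few genes. The 10 most abundant genes of each library held 18.4% to 23.3% of TPM in inter-follicular epidermis and 9.82% to 11.1% in wound epidermis, with no overlap between the tissues. The 100 most abundant held 44.7% ± 1.5 (SD, n = 5) in inter-follicular and 33.6% ± 2.0 (SD, n = 4) in wound epidermis. It took 136 to 169 genes to reach 50% of TPM in an inter-follicular library and 244 to 312 in a wound epidermis library. Each of these differences had p = 0.0159 in a two-sided exact permutation test over the 4 and 5 libraries, the smallest p this design allows, and an adjusted p of 0.0198 over the 5 measures tested. Genes at 1 TPM or more numbered 12466 to 13177 in wound epidermis and 12286 to 12530 in inter-follicular epidermis (exact permutation p = 0.048, also after adjustment), and these ranges overlapped. TPM keeps no record of read number, so sequencing depth is unknown here and its part in this last difference was not tested. RNA input and read length each took 2 values in the study, and the labels do not say whether they differed between the tissues. Their part in these shares and counts was not tested.

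**Figure D2:**
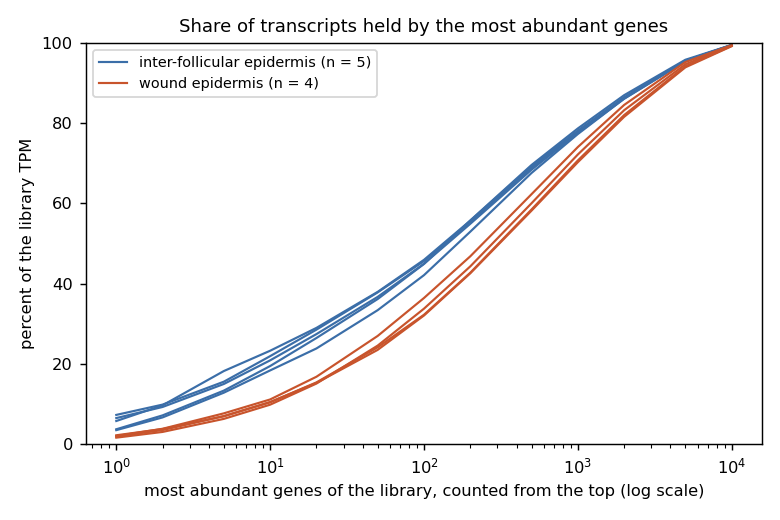
Percent of a library's TPM (vertical axis) held by its most abundant genes, counted from the top (horizontal log axis), with 1 line per library. At 100 genes the 5 inter-follicular lines lie at 42.1% to 45.9% and the 4 wound epidermis lines at 32.0% to 36.4%.

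The most abundant genes were largely different ones. Of the 50 genes with the highest mean in each tissue 15 were the same, which is 30% of either list, and of the top 10 they shared 2. Of the 50 leading inter-follicular genes 38 were lower in wound epidermis and 5 higher. Together they held 33.2% to 37.8% of TPM in inter-follicular libraries and 13.6% to 15.2% in wound epidermis. Of the 50 leading wound epidermis genes 40 were higher there than in inter-follicular epidermis and 9 lower. They held 22.5% to 26.7% of TPM in wound epidermis and 17.0% to 23.2% in inter-follicular epidermis. These lists were chosen by level in one of the compared tissues, so their direction is in part set by that choice. For comparison, 26.6% of all tested genes were lower in wound epidermis and 40.6% higher. Of the 153 genes with a mean above 1000 TPM, 49.7% were lower and 34.6% higher.

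Because TPM is a share, a few abundant genes that differ shift all others, and the balance of directions moved with the scaling. Higher genes made up 60.4% of calls on TPM as deposited, 50.5% after median-of-ratios scaling, 47.2% after quantile normalization and 48.8% on TPM rescaled without the 50 most abundant genes. The median change of all tested genes was 0.21, 0.01, -0.06 and -0.04 in these fits. Median-of-ratios scaling sets the median ratio of genes level between libraries, and quantile normalization gives every library the same distribution. A median change near 0 and a near-even balance are thus largely built into both, and do not show which balance is right. Some calls were lost between scalings. Of the 5583 higher genes 4290 and of the 3661 lower genes 3630 were called so under all 4 treatments, and 0 genes were called higher under one and lower under another. With a log2 change of at least 1 under all 4, there were 2355 higher and 1709 lower genes.

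**Figure D3:**
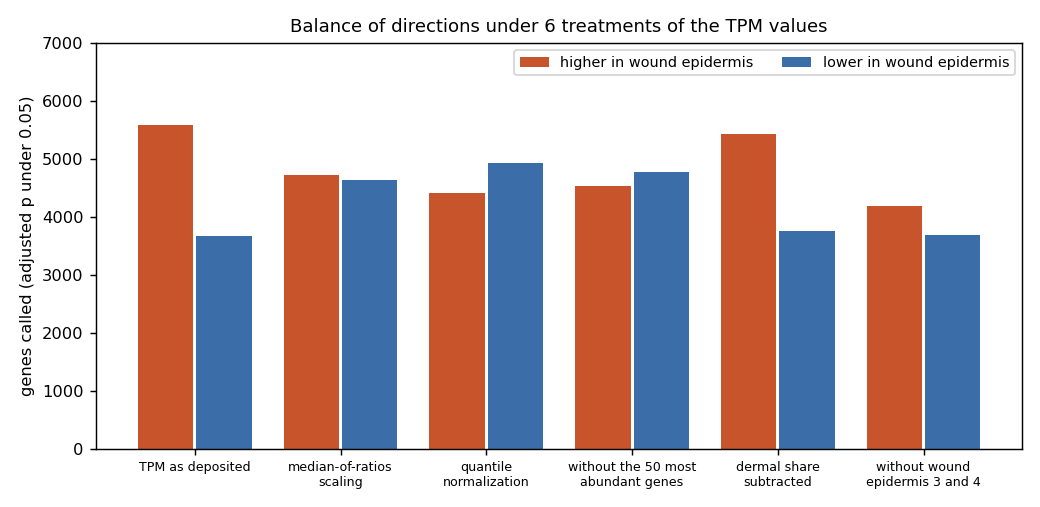
Number of genes called higher (first bar) and lower (second bar) in wound epidermis, adjusted p under 0.05 in limma, under 6 treatments of the values. The excess of higher genes on TPM as deposited (5583 against 3661) is small after median-of-ratios scaling (4718 against 4632) and reversed after quantile normalization (4402 against 4928) and without the 50 most abundant genes (4536 against 4764). Median-of-ratios scaling and quantile normalization draw this balance towards even by construction.

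The 4 identifiers were named by a rule that required no overlap between the tissues, so their separation is not a result. The identifier with the largest log2 fall under this rule was ENSRNOG00000007232. It stood at 10259, 7652, 5457, 8616 and 9980 TPM in inter-follicular replicates 1 to 5 and at 0.14, 0.07, 0.18 and 1.5 TPM in wound epidermis replicates 1 to 4. All 5 inter-follicular libraries were far above every wound epidermis library. The log2 fold change was -12.54 ± 0.27 (SE, limma adjusted p = 7.6e-10). Because the wound epidermis values are near 0, this size depends on the amount added before the log. With 0.1 TPM added in place of 1 TPM the change was -14.44. In wound dermis the identifier was at 0.05, 0.25 and 0 TPM.

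ENSRNOG00000058083 behaved alike in direction but spread more between unwounded libraries. Its inter-follicular values were 14630, 12186, 4112, 5370 and 12665 TPM, with replicates 3 and 4 far below the rest, and its wound epidermis values 3.30, 2.93, 5.81 and 3.57 TPM. The log2 fold change was -10.83 ± 0.38 (SE, limma adjusted p = 1.6e-08), and the groups did not overlap.

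The identifier with the largest rise was ENSRNOG00000037097, at 4485, 1704, 1584 and 1021 TPM in wound epidermis replicates 1 to 4. Inter-follicular replicates 1, 2, 4 and 5 held 1.94, 0.64, 2.22 and 2.49 TPM, while replicate 3 held 57.1 TPM. Replicate 3 stood apart from the other four but still lay below every wound epidermis library. The log2 fold change was 8.55 ± 0.92 (SE, limma adjusted p = 1.8e-05), and 9.43 without inter-follicular replicate 3. Wound dermis replicates 1 and 2 held 639 and 607 TPM and replicate 3 held 7.09 TPM.

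ENSRNOG00000000579 had the smallest standard error of the 4. It stood at 1017, 1103, 943 and 1549 TPM in wound epidermis and at 5.34, 5.53, 4.97, 5.64 and 7 TPM in inter-follicular epidermis. The log2 fold change was 7.41 ± 0.15 (SE, limma adjusted p = 6.6e-10). Its wound dermis values of 2852, 3794 and 5863 TPM were all above the wound epidermis values.

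**Figure D4:**
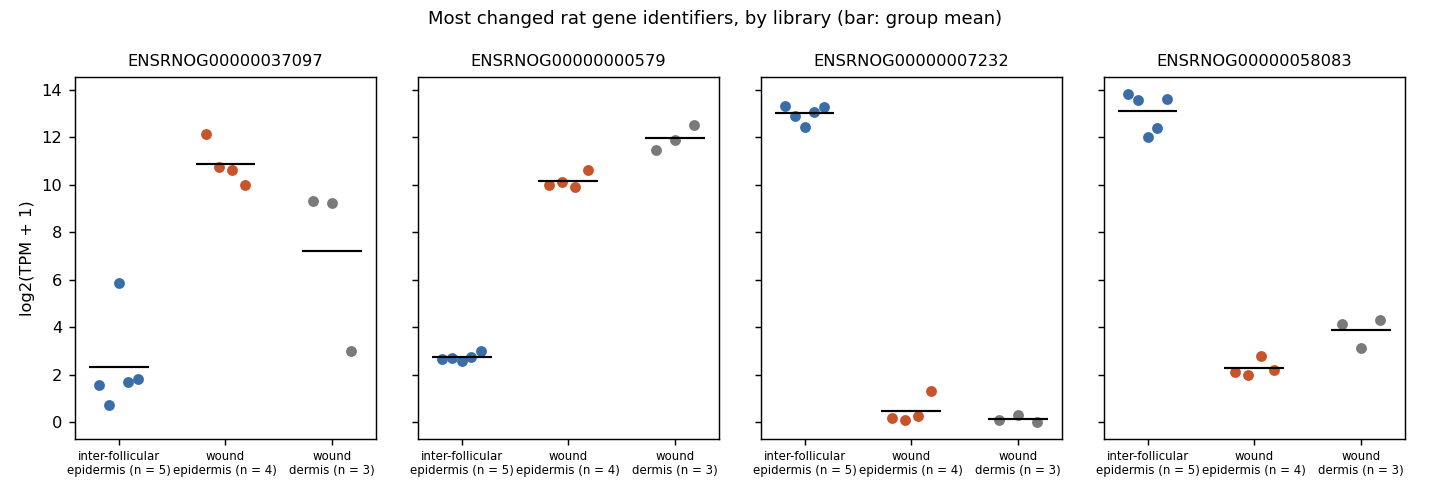
Log2(TPM + 1) in each library (points) with the group mean (bars) for the 4 identifiers, in 5 inter-follicular, 4 wound epidermis and 3 wound dermis libraries. The epidermal groups do not overlap in any panel, which the naming rule required. Inter-follicular replicate 3 stands apart for ENSRNOG00000037097 at 57.1 TPM, and wound dermis has the highest mean for ENSRNOG00000000579.

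Few genes were strongly present in one tissue and near absent from the other. Among the 13751 tested genes, 10209 reached 1 TPM in all 9 libraries, 709 reached it in wound epidermis libraries alone and 564 in inter-follicular libraries alone. The last 2 sets entered the test through the tissue where they were high, so their direction was largely fixed by the filter. The totals above include them, with 689 of the 709 called higher and 493 of the 564 called lower. Among the 10209 genes that reached 1 TPM in all 9 libraries, 4225 were higher and 2728 lower. At 10 TPM or more in every library of one tissue and under 1 TPM in every library of the other, there were 35 genes of wound epidermis and 22 of inter-follicular epidermis. The 35 held 0.140% to 0.198% of TPM in wound epidermis, with a median level of 25.9 TPM. The 22 held 0.216% to 0.275% in inter-follicular epidermis, and the most abundant of them stood at a mean of 1235 TPM. These counts and their order depended on the limits. At 100 TPM or more against under 1 TPM there were 0 and 3 genes, at 10 against 0.1 TPM 10 and 13, and at 1 against 0.1 TPM 40 and 49.

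The 2 sets differed in where else they were found. Of the 35 wound epidermis genes 23 held at least 10 TPM in all 3 wound dermis libraries, and the 35 together made up 2.56% to 2.995% of dermis TPM, more than in any wound epidermis library. Of the 22 inter-follicular genes 21 were under 1 TPM in all 3 wound dermis libraries and 0 reached 10 TPM in all of them. The dermis libraries were not alike. For 807 genes at 100 TPM or more in all 9 epidermal libraries, the 5th percentile of the level relative to wound epidermis was 13.5%, 19.3% and 0.16% in dermis replicates 1, 2 and 3. Epidermal transcripts were thus detected in dermis replicates 1 and 2 at levels at which replicate 3 did not hold them. In replicate 3 alone, 25 of the 35 genes held at least 10 TPM and 4 were under 1 TPM.

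Transcripts of genes abundant in dermis were found at a low level in wound epidermis and differed between its libraries. A set of 85 genes at 100 TPM or more in every wound dermis library and under 1 TPM in every inter-follicular library stood, in the median, at 0.51%, 0.24%, 2.19% and 1.43% of their dermis mean in wound epidermis replicates 1 to 4. Of these genes 62 passed the filter, which they could do only through wound epidermis libraries, and all 62 were called higher. Their direction was thus largely fixed by how they were chosen. In bulk tissue fewer cells of a type and less RNA per cell cannot be told apart. With these shares of the dermis mean subtracted from each wound epidermis library, 5421 genes were called higher and 3745 lower. Without replicates 3 and 4, the wound epidermis libraries with the highest shares, 4183 were higher and 3690 lower, so higher genes made up 53.1% of calls; 12825 genes were tested in that fit.

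The genes called in the epidermal comparison were also summed in the wound dermis libraries, which the fit did not use. Transcripts of dermis-abundant genes were found in wound epidermis, and epidermal ones in dermis replicates 1 and 2. The dermis shares are thus not independent of the calls, and how much this adds to them was not tested. The 5583 higher genes held 60.3% to 61.9% of TPM in wound epidermis and 19.2% to 20.8% in inter-follicular epidermis, a description of the genes as chosen. In wound dermis they held 66.7% to 68.1%. The 3661 lower genes held 22.2% to 23.3% of TPM in wound epidermis, 62.6% to 65.0% in inter-follicular epidermis and 13.5% to 15.4% in wound dermis. The median level of the higher genes was 20.7 TPM in wound epidermis, 7.13 in inter-follicular epidermis and 23.3 to 25.01 in the 3 dermis libraries. Over all tested genes these medians were 10.8, 8.73 and 10.98 to 11.88 TPM. In dermis replicates 1 to 3, 38.4%, 38.8% and 43.7% of the higher genes lay above every wound epidermis library. For all tested genes the values were near these, at 35.0%, 35.4% and 39.9%. Of the 126 genes lower by at least 3, 64.3% were under 1 TPM in dermis replicate 3 and 49.2% and 50% in replicates 1 and 2, against 13.1%, 9.86% and 9.64% of all tested genes.

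**Figure D5:**
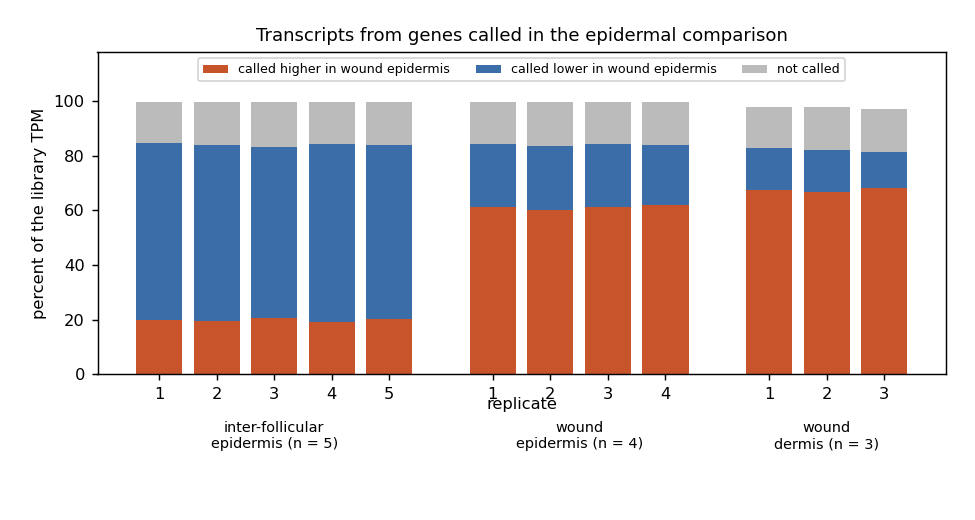
Percent of each library's TPM (vertical axis) from genes called higher in wound epidermis, called lower and not called, for 5 inter-follicular, 4 wound epidermis and 3 wound dermis libraries, 1 bar each. The higher genes make up 19.2% to 20.8%, 60.3% to 61.9% and 66.7% to 68.1% of TPM in these groups, and dermis bars stop short of 100% because some dermis transcripts come from genes that were not tested.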

How the data were processed

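RNA was measured by SMART-seq2, which copies polyadenylated RNA into full-length cDNA. The authors deposited TPM per gene and library, and every column has the same total within rounding. Bowtie 1.0.0 and RSEM 1.2.31 with Rnor_6.0 are named per the submitters' processing notes, while their settings and the gene annotation are not given. Per the labels' protocols, RNA input and read length took 2 values each. The labels do not say which library had which, so neither was used as a batch. Either may differ between the tissues, and its part in the genes called was not tested.

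For the 9 libraries, limma 3.58.1 (R 4.3.3) was fitted to log2(TPM + 1) with a trend of variance on mean, and p-values were adjusted by Benjamini-Hochberg over 13751 genes. Per-library measures used exact permutation tests in scipy 1.17.1. Identifiers named are the 2 per direction with the largest log2 change among called genes without overlap whose higher tissue averaged 10 TPM or more. The comparison, lists and tests were chosen with earlier results of these data known. The planned gene lists and promoter motif were not run, since identifiers had no names. On simulated data the fit recovered 97% of 100 genes changed by 2 and 83% of 100 changed by 1. There were 6 false calls among the unchanged ones of the 13751 genes. The 200 changed genes were drawn only from those above about 10 TPM. The simulation thus does not describe recovery at lower levels, or where as many genes change as were called in the data. All table columns matched a labelled sample.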

Additional observations from a re-analysis of the deposited data

Results flagged for a closer look

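Of 34 sets of 4 or 5 libraries examined, 4 held a library that stood apart from the others of its tissue, where chance gives about 1 in 20 for independent sets, which these are not, since several measures describe the same libraries. Inter-follicular replicate 3 accounts for 3 of them. Its 100 most abundant genes held 42.1% of TPM against 44.9% to 45.9% in the other 4, it needed 169 genes to reach 50% of TPM against 136 to 145, and it held ENSRNOG00000037097 at 57.1 TPM against 0.64 to 2.49. Wound epidermis replicate 4 held ENSRNOG00000007232 at 1.5 TPM, against 0.07 to 0.18 TPM in the other 3.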

How the results depend on the processing

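The counts of genes called, called higher, called lower, changed by at least 1 and not overlapping stayed within 1.5 times the reported ones under every alternative run. With each library left out in turn 8629 to 9049 genes were called, with 13448 to 13619 tested. With the 9 other settings the counts ran from 7235 of 9853 tested (filter of 5 TPM) to 10076 of 21981 tested (no filter). The share of tested genes that was called thus depended on the filter and was larger with the stricter one. No called gene was called in the opposite direction in any of these; with the dermal share subtracted 3 were. The 4 named identifiers kept direction and call in every alternative in which they were tested, with log2 changes of 8.13 to 9.43 for ENSRNOG00000037097, 7.18 to 7.62 for ENSRNOG00000000579, -14.44 to -12.42 for ENSRNOG00000007232 and -11.14 to -10.64 for ENSRNOG00000058083. The last 2 were not tested without the 50 most abundant genes. Same-numbered libraries of the tissues did not deviate together (correlations of -0.10 to 0.01, 0 of 4 best with their own number), and with the replicate block 8233 genes were called. Genes present in one tissue only (35 in wound and 22 in inter-follicular epidermis) depended on the limits, with 10 and 13 at 10 against 0.1 TPM, 0 and 3 at 100 against 1 TPM and 40 and 49 at 1 against 0.1 TPM. The subtraction of dermal RNA, the fit without wound epidermis replicates 3 and 4 and these limits were chosen after seeing the data. Unknown depth limits what can be said of genes near 1 TPM.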
